A study of Mus musculus with 4 samples.

Results

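The genes that carry a cell from G1 into S phase were followed here in the chromatin-associated RNA of mouse embryonic stem cells (mESCs) from which the transcription factor ZBTB21 had been degraded. The 10 genes were chosen by symbol: the D-type cyclins Ccnd1, Ccnd2 and Ccnd3, the E-type cyclins Ccne1 and Ccne2, the kinases Cdk2, Cdk4 and Cdk6, the retinoblastoma gene Rb1 and the transcription factor gene E2f1. All 10 matched a single row among the 36918 genes counted, and 9 were abundant enough to be tested, with Ccnd2 left out for low counts. ChAR-seq measures the RNA that remains with the chromatin pellet, which is rich in transcripts still being made, and its reads were counted over whole gene bodies, introns included.

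Each group had 2 libraries. The untreated group and the ZBTB21 degron group were both ZBTB21-degron mESCs, which carry a mAID-GFP tag at the C terminus of ZBTB21 on both alleles and the auxin receptor OsTIR1 at the Rosa26 locus, were obtained as selected clones, and were grown with LIF, the GSK3 inhibitor CHIR99021 and the MEK inhibitor PD0325901. The degron group received doxycycline at 1 μg/ml for 24 h and then indole acetic acid (IAA) at 500 μM for 6 h. It is not stated whether the untreated cells received doxycycline, so the loss of ZBTB21, the IAA and possibly the doxycycline cannot be told apart. The labels do not say whether replicates were separate cultures, and p-values therefore measure only the spread between these libraries, which may be technical.

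Library totals ran from 4262382 to 6479842 counts. Zbtb21 had 2, 0, 0 and 0 counts in untreated replicates 1 and 2 and degron replicates 1 and 2, but 99.88% of the gene lies under C2cd2 on the same strand and the degron acts on the protein, so its RNA is no check of the labels. Of 12 mESC markers, 11 were counted in every library, with summed levels of 2746 to 2791 CPM (counts scaled to a common library total) in the untreated and 3570 to 3593 CPM in the degron libraries. Sox2 was at 0 throughout and lies wholly under Sox2ot on the same strand. Markers of other cell types were low. Their summed levels in untreated and degron libraries were 26.9 to 29.5 and 20.1 to 21.1 CPM for 10 fibroblast genes (Dcn at 0), 49.8 to 56.3 and 32.4 to 35.9 CPM for 9 primitive endoderm genes (Afp at 0), 37.2 to 39.3 and 33.1 to 34.4 CPM for 8 neural genes (Sox1, Tubb3 and Neurod1 at 0), and 6.91 to 10.6 and 6.87 to 6.92 CPM for 8 mesoderm genes (Mesp1 and Foxf1 at 0). Same-strand cover of the markers of other cell types at 0 was not tested, so their counts do not show that they are silent. The part of these marker shifts in the results below was not tested.

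D-type cyclins bind CDK4 and CDK6, and E-type cyclins bind CDK2. Both kinds of complex phosphorylate RB, the pocket protein that otherwise holds E2F factors at their targets in a repressive state, and the released E2F drives genes for DNA replication, among them those of cyclin E and E2F1 themselves. Mouse embryonic stem cells are known for a short G1 phase, for RB that is largely phosphorylated and for cyclin E-CDK2 activity that changes little over the cycle, and MEK signalling, which PD0325901 blocks, is a known inducer of Ccnd1.

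The genes differ widely in size and surroundings. In mm10, Ccnd1 lies at chr7:144929931-144939925 on the minus strand, Ccne1 at chr7:38097984-38107534 on the minus strand, Cdk2 at chr10:128697939-128705031 on the minus strand, Cdk4 at chr10:127063534-127067920 on the plus strand and E2f1 at chr2:154559407-154569892 on the minus strand. These 5 genes are between 4387 and 10486 bp long. Ccne2 (13429 bp, chr4:11191351-11204779, plus strand) and Ccnd2 (27032 bp, chr6:127125162-127152193, minus strand) are intermediate. Ccnd3 (94641 bp, chr17:47505051-47599691, plus strand), Rb1 (142150 bp, chr14:73183673-73325822, minus strand) and Cdk6 (189524 bp, chr5:3341485-3531008, plus strand) are long, and exons make up 9.27%, 4.23% and 7.38% of them, so most of their counted sequence is intron. In Cdk2 and Cdk4 exons make up 87.7% and 74.1%. The span of Ccnd3 comes from its farthest annotated start, and a second RefSeq start lies 88416 bp further into the gene.

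RefSeq sequence upstream of the start (GRCm38.p6) was at hand for 6 of the 10 genes, Ccnd3, Ccne1, Cdk2, Cdk4, Cdk6 and E2f1. The 250 bases before the start are shown for 3 genes that rose, Cdk4, Cdk2 and Ccne1, and for Cdk6, which fell, so that the letters of known promoter elements can be read beside the measurements. Capitals mark matches on either strand to the E-box CACGTG in Cdk4 and Cdk6, to the E2F site (TTTCCCGC, TTTCGCGC, TTTGCCGC or TTTGGCGC) and the CCAAT box in Cdk2, to the GC box GGGCGG in Ccne1, and to the TATA box TATAAA in Cdk6. No marked match overlaps another.
Cdk4 (chr10:127063285-127063534, plus strand): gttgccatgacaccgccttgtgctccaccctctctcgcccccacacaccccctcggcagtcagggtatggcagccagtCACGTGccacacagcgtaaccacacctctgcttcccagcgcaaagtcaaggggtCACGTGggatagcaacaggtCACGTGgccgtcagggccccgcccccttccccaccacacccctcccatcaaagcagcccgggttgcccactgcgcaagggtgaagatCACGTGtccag
Cdk2 (chr10:128705052-128705301, minus strand): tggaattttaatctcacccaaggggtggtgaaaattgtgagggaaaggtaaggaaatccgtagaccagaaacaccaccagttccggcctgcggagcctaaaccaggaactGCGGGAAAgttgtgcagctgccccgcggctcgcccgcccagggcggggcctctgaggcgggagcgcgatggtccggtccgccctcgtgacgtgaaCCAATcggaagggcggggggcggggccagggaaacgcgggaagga
Ccne1 (chr7:38107491-38107740, minus strand): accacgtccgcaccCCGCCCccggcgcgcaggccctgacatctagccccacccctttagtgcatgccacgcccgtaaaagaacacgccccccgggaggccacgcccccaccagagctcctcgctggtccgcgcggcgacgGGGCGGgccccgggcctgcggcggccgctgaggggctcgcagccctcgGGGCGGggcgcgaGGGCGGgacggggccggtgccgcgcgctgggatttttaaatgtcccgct
Cdk6 (chr5:3343643-3343892, plus strand): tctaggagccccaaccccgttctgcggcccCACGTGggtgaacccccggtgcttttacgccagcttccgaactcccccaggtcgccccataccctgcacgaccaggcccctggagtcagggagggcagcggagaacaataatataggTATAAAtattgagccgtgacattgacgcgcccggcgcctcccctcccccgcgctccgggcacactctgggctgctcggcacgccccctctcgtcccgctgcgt

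The Cdk4 window held 4 E-boxes, the letters bound by MYC and related factors, beginning 172, 118, 98 and 11 bases before the start. At least 1 E-box was present in 6.02% of 32851 windows of the same length, and 4 or more in 7 of them. The Cdk2 window held 1 E2F site, 140 bases before the start, and 1.86% of all windows held one. No E2F site was found in the Ccne1 and E2f1 windows. The CCAAT box of Cdk2 begins 45 bases before the start (33.9% of windows hold one). The Ccne1 window had 76% G and C and 4 GC boxes. The Cdk2 window held 5 and the E2f1 window 4 of these, the Cdk4 window 1 and the Cdk6 window none, left in lower case, and 4.09% of windows held 4 or more. Cdk6 had 1 E-box, 220 bases before the start, and a TATA box 103 bases before it (12.4% of windows). The Cdk6 window belongs to an annotated start 2408 bp inside the gene, and the RefSeq start of E2f1 lies 466 bp inside that gene. The windows of Cdk6 and E2f1 therefore lie within these genes and not upstream of their farthest starts. Each match, or lack of one, describes the letters of that window only, and sites of other forms or outside the windows were not searched.

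Across these genes, 5 rose and 2 fell after ZBTB21 degradation, with p-values from the quasi-likelihood test of edgeR adjusted over all 14361 tested genes (Benjamini-Hochberg, threshold 0.05). The risers were Ccnd1, Ccne1, Cdk4, Cdk2 and E2f1, with fold changes between 1.15 and 1.38, and Cdk6 (0.60-fold) and Rb1 (0.81-fold) fell. Ccnd3 and Ccne2 did not pass. Of all tested genes, 20.3% rose and 19.8% fell by the same test. Over the 9 genes the log2 fold changes had a median of 0.20, against -0.00075 over all tested genes. Every change is relative to the typical gene, because no spike-in entered the scaling. As these are bulk samples, a change in RNA per cell and a change in the share of cells in one cell cycle phase cannot be told apart.

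**Figure D1:**
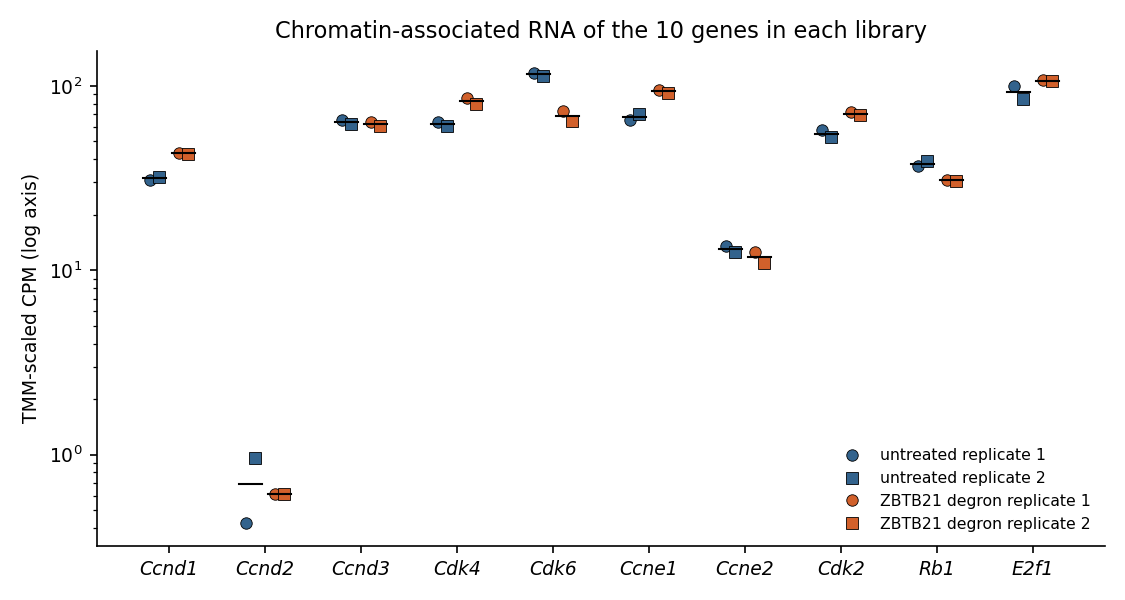
TMM-scaled CPM (log axis) of each of the 10 genes in the 4 libraries, blue for untreated and orange for ZBTB21 degron, circles for replicate 1, squares for replicate 2 and black bars for the mean of 2 libraries. The 2 colours are apart with orange above for Ccnd1, Cdk4, Ccne1, Cdk2 and E2f1, apart with blue above for Cdk6, Rb1 and Ccne2, and mixed for Ccnd3, while Ccnd2 stays at or below 0.953 CPM.

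Among the D-type cyclins, Ccnd1 (ENSMUSG00000070348) was at 30.8 and 32.2 CPM in the untreated and at 43.5 and 42.9 CPM in the degron libraries. The lowest degron library was well above the highest untreated one. Its log2 fold change was 0.46 ± 0.12 (SE, n = 2 libraries a group, edgeR adjusted p = 0.00130). Ccnd1 ends against LTO1, a gene on the opposite strand that covers 18.3% of its counted body. LTO1 itself rose, from 133 and 121 counts to 330 and 239 counts (log2 fold change 0.80 ± 0.11, edgeR adjusted p = 3.04e-07). No source says whether strand was used in counting. It therefore cannot be told whether reads of this shared stretch were kept, left out or came from its antisense partner. The same limit holds for the other genes with opposite-strand cover, Ccne2, Rb1, Cdk4, Ccnd2, Cdk2, Cdk6 and Ccnd3, and Ccne1 and E2f1 have none.

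Ccnd3 (ENSMUSG00000034165) was at 65.2 and 61.9 CPM untreated and 63.9 and 60.6 CPM after degradation. The groups overlapped, and the log2 fold change was -0.03 ± 0.09 (edgeR adjusted p = 0.840). Ccnd2 (ENSMUSG00000000184) gave 2 and 4 counts in the untreated and 4 and 3 counts in the degron libraries. These are near the floor of 3 counts, or 0.463 to 0.704 CPM, that a count of 0 would allow for counting error alone. Summed over a group, its rate was 0.613 CPM in the degron group and 0.665 CPM in the untreated group, a ratio of 0.923 with an exact 95% interval of 0.265 to 3.32 that covers counting error only, so neither a rise nor a fall was detectable at this depth.

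The kinase partners of the D-type cyclins moved in opposite directions. Cdk4 (ENSMUSG00000006728) was at 63.7 and 60.5 CPM untreated and at 86.1 and 79.3 CPM after degradation. Each degron value exceeded both untreated values, with a log2 fold change of 0.42 ± 0.09 (edgeR adjusted p = 0.000172). Tspan31, which covers 15.7% of the counted body of Cdk4 from the opposite strand, was at 0.12 ± 0.11 and did not pass (edgeR adjusted p = 0.402). Cdk6 (ENSMUSG00000040274) dropped from 117 and 114 CPM to 73.1 and 64.3 CPM. This was the largest change of the set, at -0.74 ± 0.08 (edgeR adjusted p = 9.06e-10), and the groups lay far apart compared with the SD of 2.39 and 6.23 CPM within them.

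Cyclin E is represented by a pair of genes, of which Ccne1 was the more abundant. Ccne1 (ENSMUSG00000002068) was at 65.2 and 70.3 CPM in the untreated and at 95.5 and 90.9 CPM in the degron libraries. The groups did not overlap and the log2 fold change was 0.47 ± 0.08 (edgeR adjusted p = 1.9e-05). Ccne2 (ENSMUSG00000028212) was at 13.6 and 12.6 CPM untreated and 12.5 and 11.0 CPM after degradation. Its degron values were both below its untreated values, though by less than their spread could separate (log2 fold change -0.15 ± 0.19, edgeR adjusted p = 0.569). Ints8 covers 42.8% of Ccne2 from the opposite strand and was at -0.02 ± 0.07. Cdk2 (ENSMUSG00000025358), the partner of cyclin E, was at 57.3 and 52.9 CPM untreated and 71.7 and 69.4 CPM after degradation, a log2 fold change of 0.36 ± 0.09 (edgeR adjusted p = 0.00181) with no overlap between groups. Pmel covers 7.91% of Cdk2 from the opposite strand and was at -0.41 ± 0.21 (edgeR adjusted p = 0.113).

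Rb1 (ENSMUSG00000022105) went from 36.7 and 39.1 CPM to 31.0 and 30.5 CPM. The groups were apart, but the log2 fold change of -0.30 ± 0.12 passed only narrowly (edgeR adjusted p = 0.0413), and the call was lost whichever of the 4 libraries was left out (log2 fold change from -0.34 to -0.25, adjusted p from 0.0817 to 0.224). Rcbtb2 covers 17.04% and Lpar6 3.81% of Rb1 from the opposite strand, and Rcbtb2 was at 0.06 ± 0.12 (edgeR adjusted p = 0.731). E2f1 (ENSMUSG00000027490) was at 99.2 and 85.3 CPM untreated and at 107 and 106 CPM after degradation. Both degron values lay above both untreated values, and the untreated pair was the more scattered, with an SD of 9.82 against 0.799 CPM. Its log2 fold change of 0.20 ± 0.08 passed (edgeR adjusted p = 0.0376), was 0.11 without untreated replicate 2 (adjusted p = 0.397) and 0.33 without untreated replicate 1 (adjusted p = 0.00535), and did not pass without degron replicate 1 (0.122) or degron replicate 2 (0.0727). The calls of Ccnd1, Ccne1, Cdk2, Cdk4 and Cdk6 were kept without any 1 library (adjusted p at most 0.026). Counted by groups that do not overlap in CPM, 5 of the 9 genes were higher and 3 lower, where 34.4% and 34.6% of all tested genes were.

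The direction of these changes followed gene length, as it did across the transcriptome. All 5 risers are at most 10486 bp long and both genes that fell are at least 142150 bp long. Gene length and log2 fold change had a Spearman rho of -0.85 over the 9 tested genes and of -0.469 over 14351 tested genes of known length, as descriptions across genes that share the same 4 libraries. Each gene was therefore set beside the tested genes of 0.8 to 1.25 times its length. Their median log2 fold change was 0.22 around Ccnd1, 0.23 around Ccne1, 0.28 around Cdk2, 0.27 around Cdk4 and 0.20 around E2f1. The estimates of Ccnd1 and Ccne1 thus lay furthest above those of their length class, and that of E2f1 was level with it. In the same order of genes, 33.3%, 33.7%, 34.0%, 30.4% and 32.6% of the like-length genes were higher. Around Cdk6 the median was -0.34 and 63.7% of genes were lower, and Cdk6 lay beyond it. Around Rb1 the median was -0.30, the value of Rb1 itself, and 56.4% of genes were lower. Ccnd3 (-0.03) stood above the -0.23 of its class, of which 46.8% was lower, and Ccne2 (-0.15) below the 0.16 of its class. The class of Ccnd3 is that of its full span of 94641 bp. From its second RefSeq start, 88416 bp further in, the gene would be far shorter. The medians around the short risers lay above its -0.03, and which start was used was not tested.

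When each library was rescaled to remove the trend with length, 2 genes of the set were higher and 1 lower. Background calls under this scaling were 18.1% higher and 9.98% lower, or 2599 and 1432 genes against 2921 and 2845 before. Ccne1 (0.30, edgeR adjusted p = 0.00605) and Ccnd1 (0.30, adjusted p = 0.0481) were still higher and Cdk6 (-0.39, adjusted p = 0.000172) still lower. Cdk4 (0.20, adjusted p = 0.0921), Cdk2 (0.15, adjusted p = 0.235) and E2f1 (0.05, adjusted p = 0.678) no longer passed, and Rb1 was at 0.01 (adjusted p = 0.977). Ccnd3, taken at its full span, turned to 0.21 without passing (adjusted p = 0.0751). The source of the length trend was not tested.

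**Figure D2:**
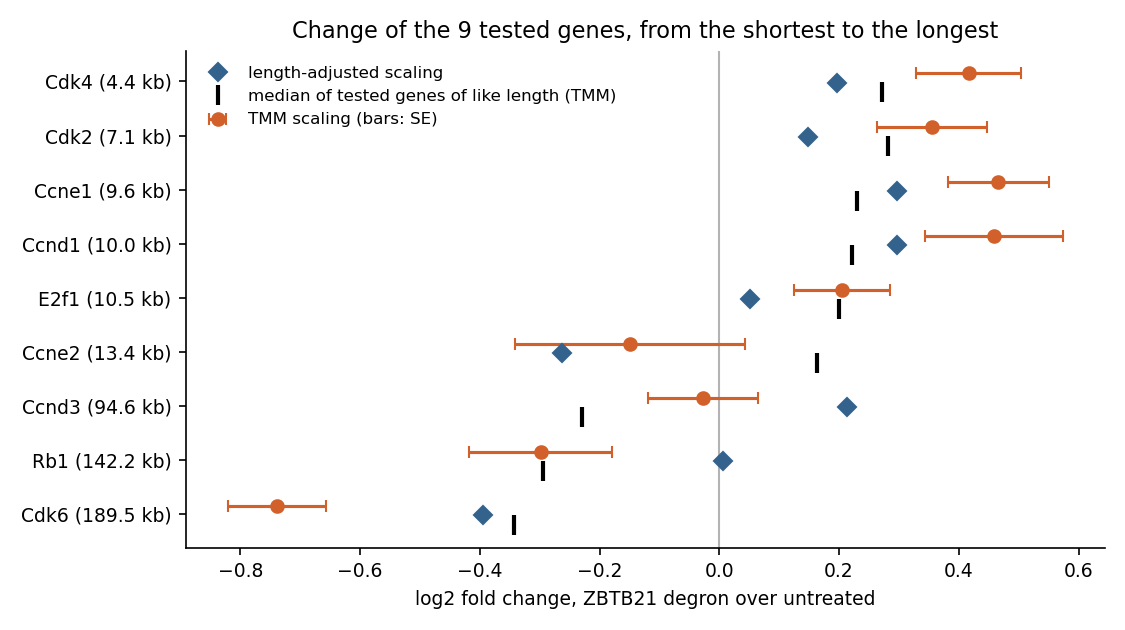
Log2 fold change (degron over untreated) of the 9 tested genes, ordered from the shortest to the longest, with the TMM estimate and its SE in orange, the length-adjusted estimate as blue diamonds and, as black ticks, the median of tested genes of like length. Cdk6 at -0.74 lies left of its tick at -0.34, and Rb1 and E2f1 lie on theirs. Ccne2 and Ccnd3, the latter taken at its full span, lie on opposite sides of theirs.

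Ratios of counts between genes within a library need no library scaling, so they were computed per kb of counted body. Cdk4 over Cdk6 was 25.2 and 24.6 in the untreated and 54.5 and 57.1 in the degron libraries. The kinase pair thus shifted towards Cdk4 in both degron libraries by far more than the difference between replicates. Ccne1 over Ccne2 was 6.81 and 7.90 untreated and 10.8 and 11.8 after degradation, and Ccnd1 over Ccnd3 was 4.60 and 5.05 untreated and 6.62 and 6.89 after degradation. E2f1 over Rb1 was 37.6 and 30.4 untreated and 48.2 and 48.4 after degradation. None of these pairs overlapped between groups. Each sets a gene called higher over one that was not, so its separation largely restates the calls above and is no further support. Of all tested genes taken singly, 34.4% were apart upwards and 34.6% downwards, and no such share was computed for ratios. Ccnd1 over Ccne1, a pair of nearly equal length, was 0.451 and 0.437 untreated and 0.434 and 0.450 after degradation, with overlap. With 2 libraries a group an exact permutation test cannot reach the threshold, and none was run on these ratios. Most pairs join a short with a long gene, so the trend with length enters these ratios as well. The counted body also includes stretches under opposite-strand genes, 42.8% in Ccne2, for which no correction was made. Ccnd3 was divided by its full span, and the size of its ratio to Ccnd1 depends on that choice of start.

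**Figure D3:**
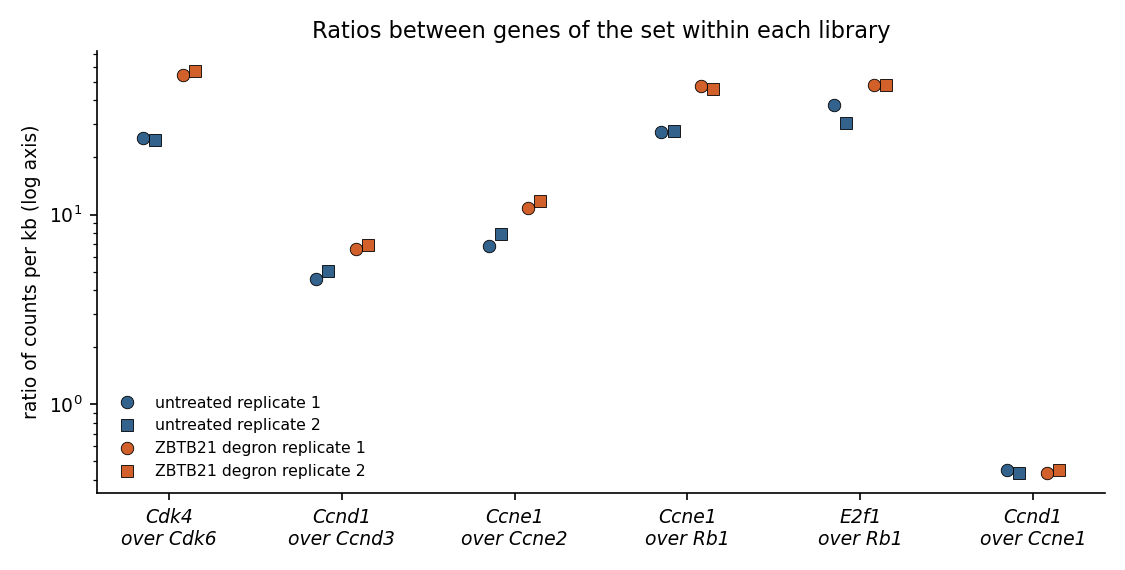
Ratio of counts per kb of counted body (log axis) for 6 pairs of genes in each library, blue for untreated and orange for ZBTB21 degron, circles for replicate 1 and squares for replicate 2. The ratio of Cdk4 to Cdk6 goes from 24.9 to 55.8 on average, while that of Ccnd1 to Ccne1 is 0.444 and 0.442.

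Per kb of counted body, Cdk4 was the most abundant of the set in untreated cells at 15.2 ± 0.554 CPM per kb (SD, n = 2), followed by E2f1 (9.06 ± 0.964), Cdk2 (8.11 ± 0.464) and Ccne1 (7.32 ± 0.388). Levels of E2f1 and Cdk2 overlapped between libraries, and all other neighbours in the order were apart. Ccnd1 was next at 3.25 ± 0.0998 CPM per kb, and the remaining genes ran from Ccne2 (0.999) through Ccnd3 (0.674), Cdk6 (0.610) and Rb1 (0.267) to Ccnd2 (0.0258). The order was the same in the degron libraries, from Cdk4 (20.2 ± 1.16) to Ccnd2 (0.0228), where E2f1 (10.5), Cdk2 (10.4) and Ccne1 (10.1) formed a run of overlapping neighbours. Cdk6, with 115 CPM the highest of the set in untreated cells before division by length, was thus among the lowest per kb. The length divided by includes introns, alternative starts and stretches covered from the opposite strand. Ccnd3 was divided by its full span, and its level per kb and its place in the order depend on that choice of start.

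The rest of the RB-E2F pathway was then examined from lists of its parts. Of 11 pocket protein, E2F and DP genes, all tested, 3 rose, 2 fell and 6 did not pass, with a median log2 fold change of -0.04. For comparison, 20.3% of all tested genes rose and 19.8% fell. Among genes of like length to each member of this list, the median shares were 16.9% higher and 19.1% lower. Tfdp1, which encodes the DP1 partner of E2F proteins, was at 462 and 479 CPM in the untreated and at 614 and 634 CPM in the degron libraries. It rose by 0.41 ± 0.05 on the log2 scale (edgeR adjusted p = 1.53e-09) and by 0.48 after length adjustment. Tfdp2, which encodes the other DP partner, fell by 0.42 ± 0.07 (length-adjusted -0.13, not past the threshold). E2f6 (0.48 ± 0.13) and E2f4 (0.34 ± 0.08), whose products act mainly as repressors, rose, though E2f6 did not pass with DESeq2's Wald test (adjusted p = 0.0622), and E2f3, an activator gene, fell by 0.34 ± 0.05, from 633 and 625 CPM to 494 and 497 CPM. E2f4 was at 0.14 and E2f3 at -0.13 after length adjustment, of which only the latter passed. Rbl1 (-0.05 ± 0.11), Rbl2 (-0.04 ± 0.10), the genes of the pocket proteins p107 and p130, and E2f2 (-0.01 ± 0.10), E2f5 (-0.08 ± 0.13), E2f7 (-0.18 ± 0.09) and E2f8 (0.31 ± 0.20) did not pass.

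Among 7 CDK inhibitor genes, 1 rose and 1 fell, where 20.3% and 19.8% of all tested genes rose and fell. Genes of like length to each inhibitor gene had median shares of 32% higher and 2.55% lower. Cdkn1a, which encodes p21, was at 160 and 161 CPM untreated and at 213 and 241 CPM after degradation, so the groups were far apart. Its log2 fold change was 0.49 ± 0.06 (edgeR adjusted p = 4.64e-08), and 0.33 after length adjustment (adjusted p = 0.000118). Cdkn2a, which encodes p16 and p19Arf from one locus, fell by 0.44 ± 0.18 (edgeR adjusted p = 0.0435) and lost its call whichever library was left out (adjusted p from 0.0752 to 0.26). Cdkn1b (0.41 ± 0.21) and Cdkn1c (0.52 ± 0.23), the genes of p27 and p57, did not pass, nor did Cdkn2b (-0.47 ± 0.40), Cdkn2c (-0.77 ± 0.39) and Cdkn2d (-0.24 ± 0.23). The highest group mean among these 5 genes was 11.2 CPM. Without degron replicate 1, Cdkn1c passed (0.72, adjusted p = 0.0327), and with the replicate block and length-adjusted scaling together, Cdkn2c passed (-0.97, adjusted p = 0.0492).

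Of 19 genes for CDK activation and for turnover of G1 cyclins and inhibitors, 7 rose, 5 fell and 7 did not pass (median 0.01), where 20.3% and 19.8% of all tested genes rose and fell. Genes of like length to each gene of this list had median shares of 22% higher and 12.4% lower. After length adjustment 6 were higher, 5 of them among the 7 risers, and the 5 genes that fell no longer did. Under that scaling 18.1% of all tested genes were higher and 9.98% lower. Fbxo31, an F-box gene whose product targets cyclin D1, rose by 0.50 ± 0.07, Pkmyt1, a gene for an inhibitory CDK1 kinase, by 0.53 ± 0.11 and Fzr1, a gene for an activator of the anaphase-promoting complex, by 0.35 ± 0.06. All 3 passed after length adjustment as well. Mnat1, of the CDK-activating kinase, fell by 0.42 ± 0.06, Fbxw7, whose product targets cyclin E, by 0.40 ± 0.06 and Cul3, a ubiquitin ligase scaffold gene, by 0.39 ± 0.08. None of these 3 genes passed after length adjustment (-0.10, -0.07 and -0.19). The remaining genes that fell changed sign. Ambra1, whose product directs D-type cyclins to degradation, was at -0.21 ± 0.05 (edgeR adjusted p = 0.000675) and after length adjustment at 0.14, past the threshold in the opposite direction (adjusted p = 0.0369). Gsk3b, a gene for a kinase that phosphorylates cyclin D1 and is the target of CHIR99021, was at -0.22 ± 0.05 (edgeR adjusted p = 0.000872) and then at 0.10 (adjusted p = 0.174). Of 5 MuvB and DREAM genes, Lin37 rose by 0.58 ± 0.16 and Lin52 fell by 0.32 ± 0.06. Genes of like length to these 5 had median shares of 13.7% higher and 25.1% lower. Neither Lin37 nor Lin52 passed after length adjustment (0.36 and -0.08), while Lin54 passed only then (0.31, adjusted p = 0.00441, against 0.15 before). Lin37 also lost its call without degron replicate 1 (adjusted p = 0.0669) and with DESeq2's Wald test (0.0915).

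Of 28 known E2F target genes of S phase entry, 27 were tested, of which 15 rose, 1 fell and 11 did not pass, with a median log2 fold change of 0.25. Over all tested genes 20.3% rose and 19.8% fell, and among genes of like length to each target the shares had medians of 27.4% higher and 6.70% lower. The helicase genes Mcm5, Mcm3 and Mcm2 rose by 0.39 ± 0.05, 0.36 ± 0.06 and 0.34 ± 0.05, and the adjusted p of Mcm5 was 6.69e-09. Mcm4 (0.31 ± 0.12) and Mcm7 (0.25 ± 0.08) rose too, but did not pass after length adjustment (0.20 and 0.05). Mcm6 (-0.04 ± 0.08) and Mcm10 (-0.03 ± 0.07) did not pass under either scaling. Ezh2, which encodes the Polycomb methyltransferase, fell by 0.21 ± 0.06 and was at -0.03 after length adjustment (not past the threshold). After length adjustment 9 of the 15 risers were still higher, and Brca1, a DNA repair gene at 0.03 before (edgeR adjusted p = 0.773), passed at 0.20 (adjusted p = 0.0150). The list then had a median of 0.17, against 0.03 over all tested genes, of which 18.1% were higher and 9.98% lower. These counts describe lists chosen with earlier results of these data known, and no test of the lists as groups was made.

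**Figure D4:**
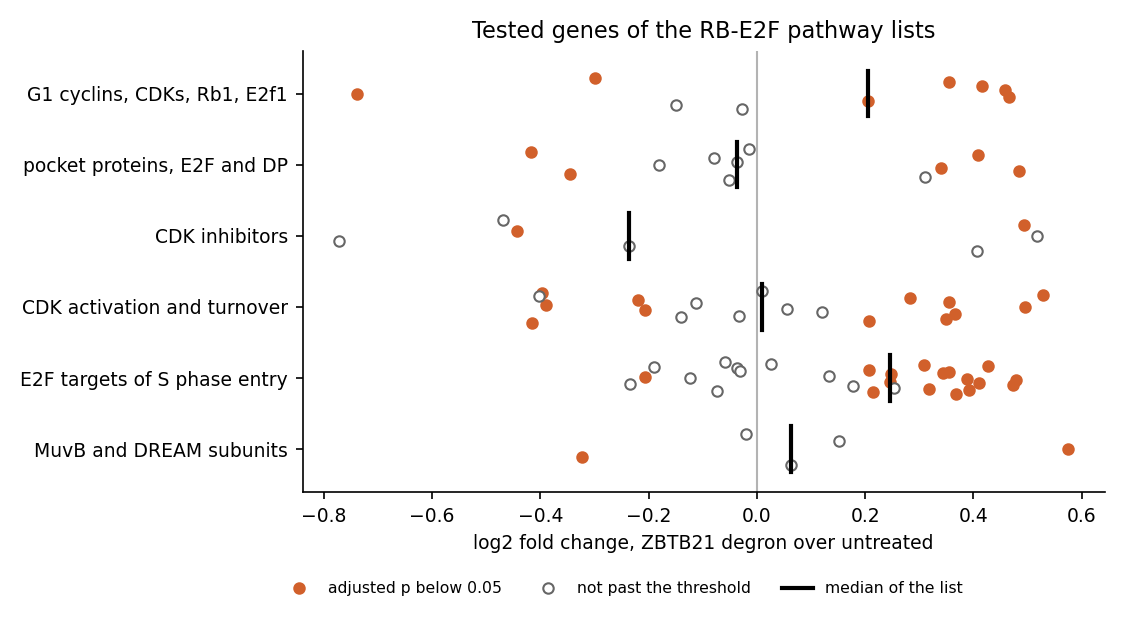
Log2 fold change (degron over untreated) of every tested gene of the set and of 5 pathway lists, filled where the adjusted p was below 0.05, with the median of each list as a black bar. The medians are 0.20 for the G1 cyclins, CDKs, Rb1 and E2f1, 0.25 for the E2F targets and -0.24 for the CDK inhibitors. The last is the value of Cdkn2d (-0.24 ± 0.23), and of the 7 inhibitor genes 1 rose, 1 fell and 5 did not pass.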

How the data were processed

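The authors deposited raw counts per gene for 4 ChAR-seq libraries, with no scaling applied. Per the study's methods and the submitters' processing notes, reads were trimmed (cutadapt 2.6), mapped to the mouse and fly genomes (bowtie2 in the methods, STAR 2.7.6a in the notes), freed of multiply mapped and duplicate reads, and counted with featureCounts 1.6.3 from 300 bp past the start to the end of each gene. The fly spike-in was not analysed here. The annotation release and strand setting are not given in the sources used here.

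Gene identifiers were matched to GENCODE M21 (36770 of 36918) for symbol, position and length. Genes passing filterByExpr (minimum count 10, minimum total 15) were scaled by TMM and compared between groups across all genes with edgeR 4.0.16's quasi-likelihood F test (robust, two-sided) in R 4.3.3, adjusted by Benjamini-Hochberg at 0.05. SEs follow from the log2 fold change and F. CPM use the TMM-scaled library sizes of the tested genes. The chi-square of counts between replicates was 1.30 (untreated) and 1.39 (degron) per gene, above sampling noise, and replicates were kept as separate samples. For length-adjusted scaling, the deviation of each library from the gene means was smoothed against log10 gene length (loess, span 0.3) and entered as an offset. The fits were tested on simulated data, which cannot show whether the spread and length trend of these libraries were modelled well.

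Alternatives were DESeq2 size factors, total counts, length-adjusted scaling, a minimum mean of 50 counts, no filter, DESeq2 1.42.0's Wald test, limma voom (limma 3.58.1), protein-coding genes only, omission of the 20 most abundant genes, a replicate block, and omission of each library in turn. Named are all 10 genes of the set, all pocket protein, E2F, DP and CDK inhibitor genes, and up to 3 genes in each direction with the smallest adjusted p from each other pathway list. LTO1, Tspan31, Ints8, Pmel, Rcbtb2 and Lpar6, which overlap genes of the set, and Ambra1, Gsk3b, Brca1 and Lin54, whose calls differ with length adjustment, were named after their values were seen. So were Mcm4, Mcm6, Mcm7 and Mcm10, the remaining Mcm genes of the E2F target list. The members and the lists were chosen with earlier results of these data known. Total counts bound the precision, and 3 counts equal 0.463 to 0.704 CPM.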

Additional observations from a re-analysis of the deposited data

How the results depend on the processing

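Of the 9 tested genes, Ccnd1, Ccne1 and Cdk6 kept their direction and their call under every alternative run, and Cdk2 and Cdk4 under all but the length-adjusted scalings. The 5 higher and 2 lower genes became 2 and 1 with length-adjusted scaling, also with a replicate block, and 4 and 1 with DESeq2's Wald test, under which E2f1 (adjusted p = 0.189) and Rb1 (0.239) lost their calls. E2f6 (0.0622), Cdkn2a (0.25) and Lin37 (0.0915) lost theirs under the same test. Rb1 also lost its call with total counts and with no filter, which left 1 lower gene each. With 1 library left out, the log2 fold change ran from 0.44 to 0.50 for Ccnd1 and from 0.42 to 0.53 for Ccne1. It ran from 0.31 to 0.43 for Cdk2, from 0.36 to 0.47 for Cdk4 and from -0.84 to -0.65 for Cdk6. Over all 14361 genes that passed the filter, DESeq2's Wald test called 1540 higher and 1456 lower, and total counts 3272 and 2657. With no filter, 3160 genes were called higher and 2399 lower. Length-adjusted scaling called 2599 higher and 1432 lower (2876 and 1651 with the block). Shared replicate numbers did not pair the libraries (correlation of deviations 0.0239 across genes, 2 pairs). The replicate block gave 5 higher and 2 lower genes of the set and 3119 and 3055 genes in all.

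Among the named genes refitted under every alternative, signs changed for Rb1 with length-adjusted scaling (0.0057, and 0.0075 with the block) and for 4 genes that did not pass. Ambra1 and Gsk3b, refitted only with length-adjusted scaling, changed sign as given above. Ccnd3 turned to 0.21 with length-adjusted scaling (0.21 with the block), 0.0085 with no filter, and to between -0.064 and 0.021 with 1 library left out (0.021 without untreated replicate 1, 0.012 without degron replicate 2). Rbl1 turned to 0.10 (0.10 with the block), and ran from -0.14 to 0.054 with 1 library left out (0.054 without untreated replicate 2, 0.029 without degron replicate 2). Rbl2 turned to 0.10 (0.097 with the block), and ran from -0.088 to 0.012 with 1 library left out (0.0083 without untreated replicate 1, 0.012 without degron replicate 2). E2f2 turned to 0.011 with total counts, 0.021 with no filter, and ran from -0.044 to 0.038 with 1 library left out (0.038 without untreated replicate 1, 0.0024 without degron replicate 2). In the settings that leave a group with 1 library, that library is assumed to vary like the other group. Depth limits Ccnd2 and the CDK inhibitor genes at 11.2 CPM or less most.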
